A study of Canis lupus familiaris with 33 samples.

Results

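The non-collagen stromal matrix genes examined in canine invasive urothelial carcinoma (iUC) were ELN, MFAP4, DCN, LUM, TNC, POSTN, SPARC, THBS2, LOX and LOXL2. They were picked by gene symbol, and all 10 were found among the 25096 genes of the table normalized by TMM (trimmed mean of M-values, a scaling between libraries). RNA was sequenced from 29 iUC tumors and 4 normal bladder samples. The tumors were high grade, came from dogs that had not been treated, one tumor from each dog, and were taken as small cystoscopic biopsies that the study's methods describe as made up almost wholly of epithelial cells. The normals are titled as normal mucosa, with the cell type given as "Normal Urothelial cells", and are dissected bladder linings of dogs put down for an unrelated illness. Dogs of any age, sex and breed entered the tumor group, and the way tissue was obtained differed between the groups, so that collection and disease cannot be told apart. No molecular subtype was used, and none is given in the sample labels used here. The questions put to the data were how the 10 genes differed between normal and tumor, whether they differed alike, and how they varied together among the tumors.

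These genes encode what surrounds the cells of a tissue besides its collagen. Elastin (ELN) is deposited on microfibrils as elastic fibres, which let the bladder wall stretch and recoil, and MFAP4 is a microfibril-associated glycoprotein bound to those fibres. Decorin (DCN) and lumican (LUM) are small leucine-rich proteoglycans that sit on collagen fibrils and control their thickness and spacing. Tenascin-C (TNC), periostin (POSTN), SPARC and thrombospondin-2 (THBS2) are matricellular proteins, which are secreted into the matrix and modulate adhesion and assembly more than they bear load. LOX and LOXL2 are copper-dependent amine oxidases that form crosslinks in elastin and collagen. In tumors, such genes are known chiefly as products of fibroblasts and of other mesenchymal cells.

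Values are on a log2 scale, and the authors subtracted from each gene its own median across the 33 samples. A value of 1 is thus 2-fold above the gene's own median, and levels cannot be compared between genes. Genes that drop out of detection show 1 identical lowest value in several samples. None of the 10 genes did so, and each was therefore measured above that limit in every library. Total counts per sample are not known. Of 467 olfactory receptor genes, which bladder is not known to use, 97.0% to 97.4% lay above their lowest value in the normals, against a median of 18.4% in the tumors (range 3.85% to 89.5%). Tumors 14, 25 and 17 stood apart with 89.5%, 85.0% and 73.0%, the next tumor having 48.6%, and the main counts are therefore also given without these 3. No tumor reached the share of any normal, so this trait and disease cannot be told apart where tumors are compared with normals. Leaving out these 3 tumors does not remove it from that comparison.

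In tumors, 9 of the 10 genes were lower and none was higher, LOXL2 being the one that passed in neither direction. A gene was called when limma's moderated test, adjusted by Benjamini-Hochberg over 24471 genes, gave an adjusted p of at most 0.05 together with a change of at least 2-fold. The background was high: 45.8% of all genes tested were called lower and 10.7% higher. The median log2 fold change of the 10 genes was -2.84, against -0.84 over all genes. Every normal lay above every tumor for 4 of the 10 genes (ELN, DCN, THBS2 and LOX), which held for 28.5% of all genes. Among the 18418 tested genes whose median lay above their lowest value, as it does for these 10, 30.4% were called lower and the median log2 fold change was -0.01. No gene of the 10 had every normal below every tumor, as 7.63% of all genes did. The same 9 genes were called without tumors 14, 25 and 17. They were also called in the authors' other table, scaled by the DESeq method, where 49.1% of all genes were lower and 5.62% higher.

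**Figure D1:**
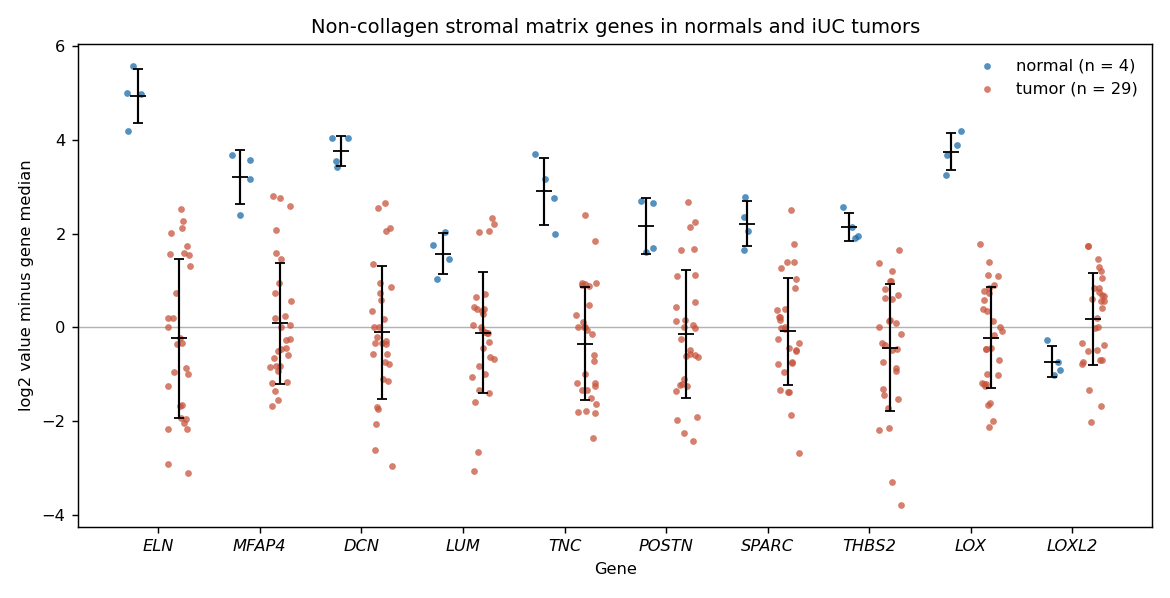
Each point is 1 sample, 4 normals in blue and 29 tumors in red, with the log2 value minus the gene median on the vertical axis and the mean ± SD in black. ELN, DCN, THBS2 and LOX show no overlap between groups, whereas the LOXL2 normals, from -1.01 to -0.28, sit within the range of the tumors.

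Both elastic fibre genes were lower in tumors. ELN stood at 4.97, 5.57, 4.19 and 4.99 in normals 1 to 4. In the tumors it ran from -3.10 to 2.53 with a median of -0.34. The lowest normal was thus well above the highest tumor, and ELN had the largest change of the 10 genes, -5.17 (SE 0.83, adjusted p = 1.64e-06), or 36.0-fold. ELN was also the most uneven of the 10 across tumors, with an SD of 1.70 that exceeded that of 95.8% of the genes tested. MFAP4 was at 2.40, 3.58, 3.67 and 3.16 in the normals and between -1.68 and 2.80 in the tumors, with a median of -0.28. Its groups overlapped, since 3 of 29 tumors reached the lowest normal, and it fell by 3.12 on the log2 scale (SE 0.64, adjusted p = 6.67e-05).

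The neighbouring proteoglycan genes fell by unequal amounts. DCN was at 3.56, 3.41, 4.03 and 4.04 in the normals, and its tumors spanned -2.96 to 2.64 with a median of -0.30. No tumor reached a normal for this gene, whose log2 fold change was -3.87 (SE 0.70, adjusted p = 1.04e-05), 14.6-fold lower. LUM was at 1.76, 1.03, 1.45 and 2.04 in the normals. Its tumors lay between -3.07 and 2.34 with a median of -0.11, and 4 of them were above every normal while the other 25 were below every normal. The LUM change of -1.69 (SE 0.64, adjusted p = 0.0182) was the smallest of the 9 calls, and the call was lost when normal 1 (adjusted p = 0.0511) or normal 4 (adjusted p = 0.0658) was left out.

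All 4 matricellular genes fell in tumors. TNC, a glycoprotein of developing and wounded tissue, was at 2.75, 3.16, 1.99 and 3.69 in the normals and from -2.36 to 2.39 in the tumors (median -0.14), and 28 of 29 tumors were below every normal. Its log2 fold change was -3.25 (SE 0.60, adjusted p = 1.44e-05). POSTN, which binds collagen and integrins, was at 2.66, 1.69, 1.62 and 2.70 in the normals and from -2.43 to 2.67 in the tumors (median -0.24). The groups overlapped most for POSTN among these 4, with 5 tumors at or above the lowest normal, and the change was -2.30 (SE 0.68, adjusted p = 0.00308). SPARC, a collagen-binding glycoprotein, was at 2.06, 2.36, 1.65 and 2.78 against tumors from -2.68 to 2.49 (median -0.04). It fell by 2.30 as well (SE 0.57, adjusted p = 0.00058), 27 tumors lying below every normal. THBS2, a thrombospondin that restrains the growth of vessels, was at 2.13, 1.95, 1.90 and 2.57 in the normals and between -3.79 and 1.64 in the tumors (median -0.34). It was the only matricellular gene of the 4 with no overlap, and its change was -2.57 (SE 0.67, adjusted p = 0.000955).

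The crosslinking enzymes parted. LOX was at 3.68, 4.18, 3.24 and 3.88 in the normals, with tumors from -2.14 to 1.78 and a median of -0.15. All 29 tumors were below every normal, the change was -3.97 (SE 0.53, adjusted p = 5.14e-08), or 15.7-fold, and the adjusted p was the smallest of the 10 genes. LOXL2 was at -0.92, -0.28, -1.01 and -0.73 in the normals, below its median over all samples, and between -2.01 and 1.74 in the tumors (median 0.40). For LOXL2, 18 tumors were above every normal and 3 below, and the change of 0.91 (SE 0.49, 95% confidence interval -0.09 to 1.90, adjusted p = 0.0961) did not pass.

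Markers of several cell types also differed between the groups. The 4 smooth muscle genes found in the table were all called lower in tumors, among them ACTG2 (-7.05) and TPM2 (-6.28). Their mean ran from 5.29 to 7.28 in the normals and from -1.19 to 4.07 in the tumors, so that every tumor was below every normal. The mean of 7 fibroblast markers ran from 2.58 to 3.27 in the normals and reached at most 2.15 in the tumors, again without overlap, and 6 of the 7 were called lower, THY1 by 2.71 for instance, but not PDGFRB (-1.14, adjusted p = 0.101). TWIST2, another of the 7, was at its lowest value in 10 tumors. In the table scaled by the DESeq method all 7 were called lower. The mean of 3 Schwann cell markers separated the groups too, at 3.46 to 3.96 in the normals and -1.54 to 1.82 in the tumors. Of these 3, CDH19 and SOX10 were called lower, each at its lowest value in 2 tumors. MBP (-0.34) was not called, with 4 tumors above every normal. Of 7 epithelial markers, 5 were called higher in tumors, among them EPCAM (2.18) and CDH1 (2.15). This was 3 of 7 without normal 4, and 3 of 7 in the table scaled by the DESeq method. The urothelial plaque gene UPK3A was higher by 1.85 (limma, adjusted p = 3.05e-05), while the plaque genes UPK1A (0.03) and UPK2 (0.04) were not called. For UPK1A normal 4 was at -1.27 and the other normals from -0.04 to 0.36. For UPK2 normal 4 was at -2.14 and the others from 0.35 to 0.38. Without normal 4 the lowest change among the epithelial markers was -0.58. Endothelial, macrophage and T cell means overlapped between the groups, and 1 of the 18 genes of these 3 lists was called. In the table scaled by the DESeq method, 1 endothelial and 2 T cell genes were called lower. Over all genes tested, 45.8% were called lower, and 28.5% had every normal above every tumor. On that background, smooth muscle genes and most fibroblast markers were higher in the normals, whose labels name both mucosa and urothelial cells. The part of this difference in the results on ELN, DCN and the others was not tested. In bulk samples, fewer cells of a type and less RNA per cell cannot be told apart.

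To ask whether the 10 genes changed alike, the log2 difference between 2 genes was taken within each sample and compared between tumors and normals by a two-sided exact permutation test. Any scaling factor of a library drops out of such a difference. Of 45 pairs, 22 passed after Benjamini-Hochberg adjustment over the pairs, and 22 also without tumors 14, 25 and 17. LOXL2 differed in change from all 9 others, ELN from 8 (DCN being the exception, adjusted p = 0.0886), LUM and LOX from 5 each, and MFAP4 from no gene but ELN and LOXL2. The smallest exact p that 4 normals and 29 tumors allow is 2.44e-05.

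Within a role, changes were unequal in 3 of the 4 groups. LOX exceeded LOXL2 by 4.48 ± 0.17 (SD, n = 4) in the normals relative to the median of each gene, and by -0.39 ± 1.29 (n = 29) in the tumors, with all 29 tumors below every normal (adjusted p = 0.00011, exact permutation test). The LOX to LOXL2 contrast thus shifted by -4.87. DCN over LUM went from 2.19 ± 0.35 in the normals to 0.01 ± 0.68 in the tumors, a shift of -2.18 with no overlap (adjusted p = 0.00011, exact permutation test). ELN over MFAP4 went from 1.73 ± 0.86 to -0.32 ± 0.83, with 25 tumors below every normal (shift -2.05, adjusted p = 0.00059, exact permutation test). Among the matricellular genes, by contrast, none of the 6 pairs passed. POSTN and SPARC shifted against each other by -0.01 (adjusted p = 0.99, exact permutation test), and the widest gap, between TNC and SPARC, was -0.95 (adjusted p = 0.0785).

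The genes were next set against collagens, the other large class of stromal matrix. The reference was the within-sample mean of the 5 collagen genes found of 9 listed, COL1A1, COL1A2 and COL5A1, which form fibrils, COL6A3 of beaded filaments and COL12A1, which decorates fibrils. This mean was itself lower in tumors, at 1.06 to 2.39 in the normals and with a median of -0.03 in the tumors. A gene that did not change would therefore rise relative to it. The share of all genes that would pass against this reference was not computed. Relative to it, ELN fell by 3.29, LOX by 2.09, DCN by 1.99, TNC by 1.37 and MFAP4 by 1.24, while LOXL2 rose by 2.78. For ELN, TNC and LOXL2 the groups did not overlap (adjusted p = 8.15e-05 each, exact permutation test over 10 genes). ELN went from 3.10 ± 0.26 in the normals to -0.19 ± 1.08 in the tumors, TNC from 1.07 ± 0.28 to -0.30 ± 0.57, and LOXL2 from -2.57 ± 0.38 to 0.22 ± 0.90. The adjusted p was 0.000244 for LOX, 0.00459 for DCN and 0.0242 for MFAP4, and MFAP4 lost its call without normal 3 (adjusted p = 0.205, exact permutation test) and with a difference of medians (-0.87, adjusted p = 0.148). The same 6 genes passed without tumors 14, 25 and 17. LUM (0.18, adjusted p = 0.756), POSTN (-0.43, adjusted p = 0.47), SPARC (-0.42, adjusted p = 0.258) and THBS2 (-0.69, adjusted p = 0.212) did not pass.

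The choice of collagen mattered. The 5 reference genes themselves diverged: the log2 fold changes of COL1A1 (-3.04), COL1A2 (-3.03) and COL6A3 (-2.59) passed, whereas those of COL12A1 (-0.87, adjusted p = 0.231) and COL5A1 (0.15, adjusted p = 0.759) did not. With only the type I genes COL1A1 and COL1A2 as the reference, 2 of the 10 genes passed, ELN at -2.13 and LOXL2 at 3.94. TNC then differed by -0.21 (adjusted p = 0.631, exact permutation test), LOX by -0.93 (adjusted p = 0.133), DCN by -0.83 (adjusted p = 0.309) and MFAP4 by -0.08 (adjusted p = 0.862). With COL5A1 alone, all but LOXL2 passed (0.75, adjusted p = 0.161, exact permutation test), the others lying between -5.32 for ELN and -1.84 for LUM. ELN was thus lower under each of these 3 references, and LOXL2 was higher relative to the 5 collagens and to type I collagen but not detectably so relative to COL5A1.

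**Figure D2:**
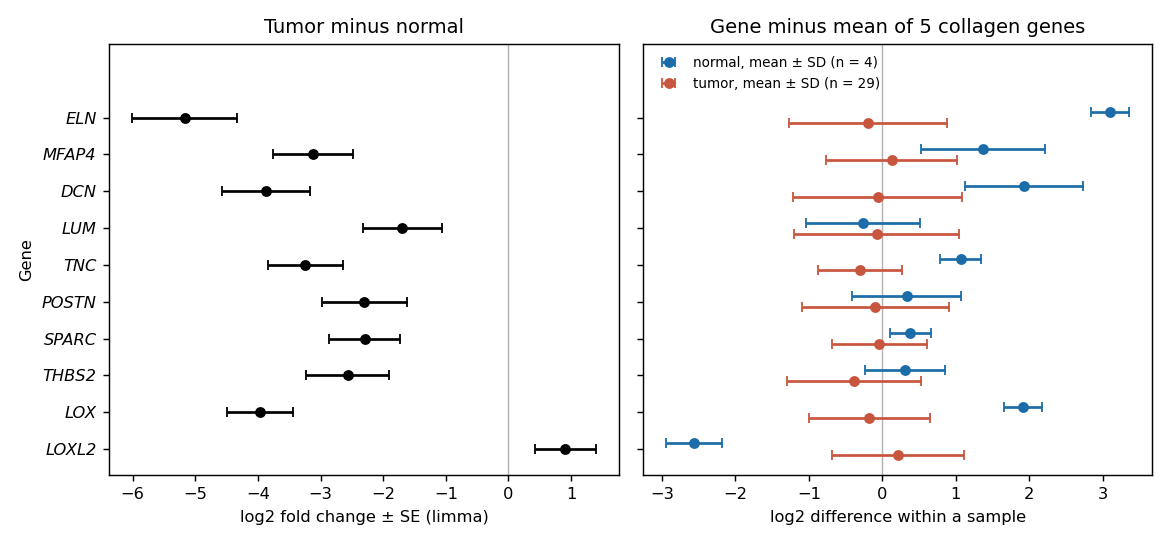
On the left is the log2 fold change, tumor minus normal, of each gene with its SE from limma. On the right is each gene's log2 value minus the mean of 5 collagen genes in the same sample, as mean ± SD of 4 normals (blue) and 29 tumors (red). ELN and LOXL2 stand at the opposite ends, -3.29 and 2.78 relative to the collagens, while LUM differs by 0.18.

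Other matrix genes of the same roles were examined from a list of 47, of which 34 were tested. In tumors 19 were called lower, 2 higher and 13 neither, against 45.8% lower and 10.7% higher over all genes. The median log2 fold change was -1.77, against -0.84 over all genes. Without tumors 14, 25 and 17 the counts were again 19 lower and 2 higher. All 34 had a median above their lowest value, and among the genes tested of that kind 30.4% were called lower, with a median log2 fold change of -0.01. Nothing particular to these lists is read from the counts. Of the proteoglycan genes, 5 of 6 fell along with DCN and LUM, led by ASPN (-3.63) and ECM2 (-3.61), with all 29 tumors below every normal for both. Among matricellular genes, 7 of 10 fell, the largest changes being in TNR (-6.05) and TNN (-4.69), tenascins like TNC. For both, 28 of 29 tumors were below every normal, and the other TNR tumor, at 7.43, was above every normal. Elastic fibre genes fell in 7 of 13 cases. EFEMP1, a fibulin, fell by 3.76 with no overlap, and EMILIN2 fell by 4.63 in the fit, but its normals were at 7.42, 4.09, -0.75 and 8.00, so that 1 normal lay at the lowest tumor value. Of the crosslinking enzymes none of 5 fell past the thresholds and their median change was 0.75. TGM2 (2.39, adjusted p = 0.00275) and PLOD3 (1.13, adjusted p = 2.49e-05), a transglutaminase and a lysyl hydroxylase, were higher in tumors. PLOD3 was above every normal in 27 tumors and TGM2 in 26, but PLOD3 fell below the 2-fold threshold in the table scaled by the DESeq method (0.83). Of the 7 crosslinking enzymes measured, LOX and LOXL2 included, LOX was called lower.

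**Figure D3:**
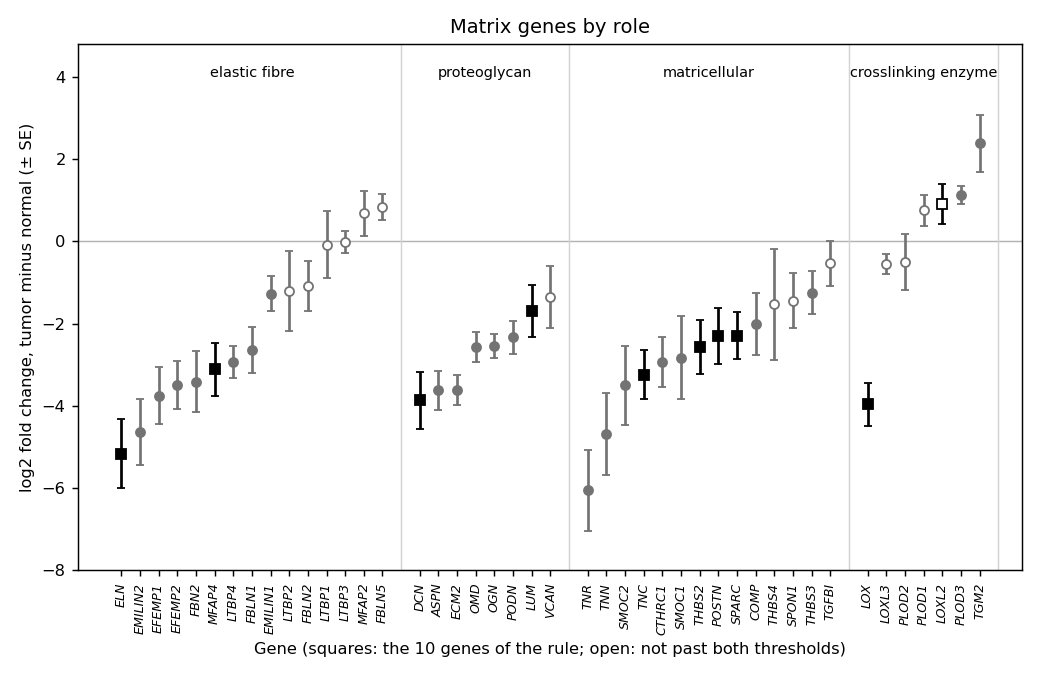
Log2 fold changes, tumor minus normal, with their SE for the 10 genes (squares) and 34 further matrix genes (circles), ordered within 4 roles. Filled marks passed both thresholds. Elastic fibre, proteoglycan and matricellular genes lie mostly below 0, with TNR lowest at -6.05, whereas LOX is the 1 crosslinking enzyme with a filled mark below 0.

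Among the 29 tumors, the 10 genes rose and fell together. Pearson's r was positive for 45 of 45 pairs, with a median of 0.600 (range 0.223 to 0.878), and 41 pairs passed a two-sided permutation test after adjustment over the 45. The smallest p that the 100000 resamples can give is 1e-05. For comparison, the median r of each gene with all genes that vary among the tumors (24089 with itself) lay between -0.01 and 0.02. Spearman's rho passed for 41 pairs, with a median of 0.611. Without tumors 14, 25 and 17, 28 pairs passed over the 26 tumors left (median r 0.523), 13 of the 41 no longer did, and all 45 remained positive. Leaving out any 1 of these 3 tumors gave 38 to 42 pairs.

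The 6 strongest pairs by Pearson's r fell into 3 groups, which were drawn up after the values were seen. In the first, ELN, MFAP4 and LOX, the enzyme that crosslinks elastin and the fibre's own components, r was 0.878 for ELN and MFAP4 (rho 0.910), 0.834 for ELN and LOX (rho 0.824) and 0.773 for MFAP4 and LOX (rho 0.759), each with adjusted p = 5e-05 by permutation. With the 2 tumors most extreme in the first gene left out, these were 0.855, 0.790 and 0.762. In the second, DCN, LUM and THBS2, r was 0.878 for DCN and LUM (rho 0.835), 0.813 for LUM and THBS2 (rho 0.716) and 0.702 for DCN and THBS2 (rho 0.678), with 0.834, 0.709 and 0.659 without the 2 farthest tumors. POSTN and SPARC made the third, with r = 0.790 (rho 0.731), or 0.724 without the 2 farthest tumors. Without tumors 14, 25 and 17, r within the groups was between 0.608 for DCN and THBS2 and 0.850 for ELN and MFAP4. The next pair, MFAP4 with DCN (r = 0.749), ran across groups. So did POSTN with THBS2 (r = 0.711), which was above DCN with THBS2. Without the 2 farthest tumors it was 0.785, above LUM with THBS2 and POSTN with SPARC. By rho, ELN with SPARC (0.766), also across groups, was above MFAP4 with LOX, POSTN with SPARC and LUM with THBS2. TNC had r between 0.562 and 0.718 with each of the 9 others.

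LOXL2 was the least tied to the rest. Its r ran from 0.223 with LOX to 0.562 with TNC, and 3 of the 4 pairs that did not pass held LOXL2, with LOX (adjusted p = 0.243 by permutation), MFAP4 (r = 0.297, adjusted p = 0.119) and DCN (r = 0.348, adjusted p = 0.0669). The fourth was DCN with SPARC (r = 0.367, adjusted p = 0.0532). LUM with LOXL2 passed at 0.476 but was at 0.275 with the 2 tumors most extreme in LUM left out. LOX and LOXL2, which carry out related reactions, were thus the least correlated pair of the 45.

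Tumor labels came in 2 styles, 18 beginning with a digit and 11 with a letter, and what the styles stand for was not stated. All 45 pairs were positive in the 18 tumors and 34 passed. In the 11 tumors 43 were positive and 14 passed, with median r of 0.621 and 0.594. ELN with MFAP4 was 0.924 and 0.847, DCN with LUM 0.853 and 0.910, and POSTN with SPARC 0.620 and 0.937 in the 18 and the 11 tumors. These pairs were picked over all 29 tumors, of which both sets are parts, so their values here are a description. In the 18 tumors POSTN was closer to LUM (0.815), DCN (0.804) and THBS2 (0.785), all of another group, than to SPARC. In the 11 tumors these were 0.492, 0.216 and 0.594.

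Tumor 25 was among the 5 highest tumors for all 10 genes, with a mean over the genes of 2.06, and tumor 23 was so for 8 genes (mean 1.54). At the other end, tumor 17 had a mean of -2.01 and gave the lowest value of MFAP4, DCN and THBS2. Tumors 25 and 17 are both among those with many olfactory receptor genes above their lowest value, yet stand at opposite ends. Over the 29 tumors the mean of the 10 genes and the olfactory receptor share had r = -0.09, and taking the share out by regression left 42 pairs past the threshold.

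Much of the shared variation followed collagen, but not all of it. When the mean z score of the 5 collagen genes was regressed out of every gene, the median r fell from 0.600 to 0.112, 32 of 45 pairs were positive and 11 passed. Within the 3 groups, DCN with LUM (r = 0.820), LUM with THBS2 (0.719), ELN with MFAP4 (0.717), ELN with LOX (0.630), POSTN with SPARC (0.545), MFAP4 with LOX (0.517) and DCN with THBS2 (0.478, adjusted p = 0.0398 by permutation) passed. The other 4 that passed ran across groups or held TNC, namely MFAP4 with DCN (0.561), LUM with POSTN (0.505), LUM with TNC (0.484) and DCN with TNC (0.461). The groups were drawn from the highest r over these same tumors, so these values are not independent support for them. LOX and LOXL2 went to -0.430 (adjusted p = 0.0696 by permutation). Regressing out the smooth muscle score instead left 32 pairs, with a median r of 0.473.

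**Figure D4:**
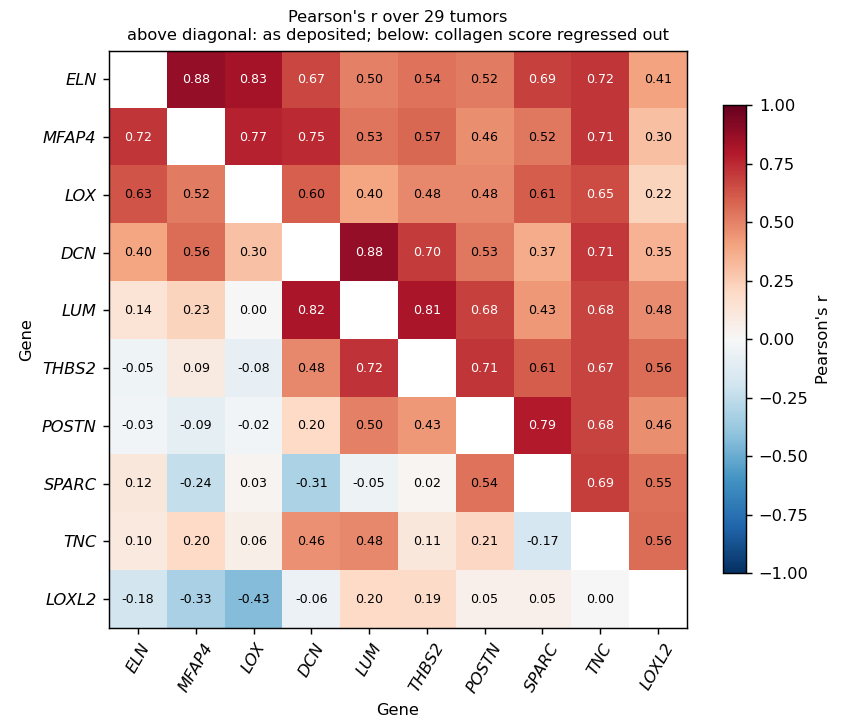
Pearson's r between the 10 genes over 29 tumors. Above the diagonal are the values as deposited and below it those after regressing out the score of 5 collagen genes, with red positive and blue negative. ELN, MFAP4 and LOX, then DCN, LUM and THBS2, then POSTN and SPARC have r from 0.478 to 0.820 below the diagonal, where MFAP4 with DCN, across groups, is at 0.561.

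The 10 genes were also set against markers of cell types among the tumors. Over 80 relations between the 10 genes and 8 marker lists, where a list's score is its genes' average z over the tumors, 38 passed a permutation test after adjustment, 37 of them positive. All 10 genes followed the collagen score (r from 0.552 for LUM to 0.884 for TNC) and the fibroblast score (0.447 for LOXL2 to 0.864 for ELN). The smooth muscle score was followed by 7, with the highest r for MFAP4 (0.792, rho 0.760), ELN (0.757, rho 0.867) and LOX (0.724, rho 0.855), with adjusted p = 6.15e-05 each by permutation. By rho, SPARC (0.765) was above MFAP4. LUM (0.204), POSTN (0.320) and LOXL2 (0.333) did not pass for smooth muscle by r, though LOXL2 did by rho (0.469, adjusted p = 0.027 by permutation). The difference between these correlations was not tested.

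SPARC followed the endothelial score most closely, at r = 0.888 (rho 0.889, adjusted p = 6.15e-05 by permutation, and 0.852 when the 2 tumors with the most extreme scores were left out), and it was 0.828 and 0.907 in the 18 and the 11 tumors and 0.896 without tumors 14, 25 and 17. The same score gave 0.610 for ELN and 0.589 for POSTN, and 0.177 for DCN and 0.248 for LUM, neither of which passed. In the 18 and the 11 tumors it gave 0.652 and 0.336 for ELN, and 0.281 and 0.780 for POSTN. SPARC was also the 1 gene to pass with the epithelial score, negatively (r = -0.545, rho -0.521, adjusted p = 0.00696 by permutation), but this was -0.372 without the 2 farthest tumors, and -0.277 in the 18 tumors against -0.806 in the 11. Immune scores passed for LUM with macrophages (0.480, or 0.276 without the 2 farthest tumors) and for POSTN (0.493) and SPARC (0.479) with T cells. The T cell relations were 0.172 and 0.034 in the 18 tumors and 0.683 and 0.781 in the 11. No gene followed the Schwann cell score. Of the 80 relations, 30 passed without tumors 14, 25 and 17.

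**Figure D5:**
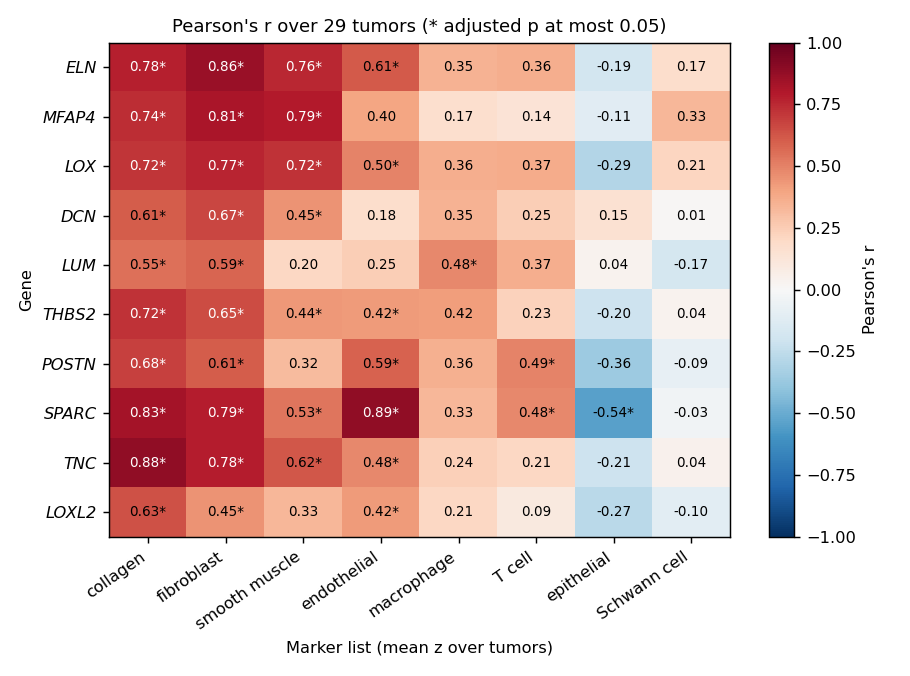
Pearson's r over 29 tumors between each of the 10 genes (rows) and the mean z score of 8 marker lists (columns), with a star where the permutation p adjusted over 80 relations is at most 0.05. The collagen and fibroblast columns are starred in all 10 rows, the smooth muscle column peaks at MFAP4 (0.79) and the endothelial column at SPARC (0.89).

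The genes of the table most like each of the 10 over the tumors, the other 9 of the 10 and genes with no symbol left aside, were found by Pearson's r and are given without a test. ELN was most like THSD7A (0.877), DPYSL3 (0.873) and TMEM132C (0.872), and DPYSL3 (0.838) was again among those most like LOX, after PRR16 (0.868) and SCUBE1 (0.845). For MFAP4 they were COL14A1 (0.899), a fibril-associated collagen, ARHGEF25 (0.886) and C7 (0.885), a complement component. PEG3, an imprinted gene, was shared by DCN (0.903) and LUM (0.899), with GFPT2 (0.913) and C1QTNF7 (0.912) for DCN, and TGFBI (0.905) and PTGS1 (0.895) for LUM. TNC was most like COL1A2 (0.869), CERCAM (0.865) and EFEMP2 (0.863). POSTN was most like CLEC11A (0.828), the transcription factor ZEB1 (0.804) and FILIP1 (0.796). SPARC stood beside CD34 (0.938) and LAMA4 (0.937), a surface protein and a laminin chain of vessels, and EHD2 (0.926). THBS2 was most like SVEP1 (0.882), the laminin gene LAMA2 (0.868) and the gelatinase MMP2 (0.855). LOXL2 had the weakest nearest genes, R3HCC1 (0.775), PRSS23 (0.692) and COL12A1 (0.655).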

How the data were processed

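Total RNA of 4 normal bladder samples and 29 iUC tumors was depleted of ribosomal RNA and sequenced in 1 batch. The authors aligned paired-end reads to CanFam3.1 with COBWeb and quantified genes in Strand NGS. The authors deposited log2 values in 2 tables, normalized by TMM and by DESeq, with every gene centred on its median across samples. An incomplete last line of each table was dropped. No sample column was left unmapped and no column of the authors' own comparisons is present. Since the deposited log2 values hold no counts, linear models took the place of count tests, depth is unknown, and no pseudocount was added. Whether the library counting used strand is not given in the sources used here. Tumors are numbered in accession order.

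Groups were taken from the labels. Genes above their shared lowest value in at least 4 samples (24471 genes) were tested on the TMM values by linear models with empirical Bayes moderation and a mean-variance trend (limma 3.58.1, R 4.3.3). Differences between genes were tested by exact permutation over 40920 arrangements, and correlations by 100000 permutations, both two-sided, in Python 3.11.15 with numpy 2.4.6, pandas 2.3.3, scipy 1.17.1 and matplotlib 3.10.9. The tests were checked on simulated data. Of the lists, 5 of 9 collagen, 7 of 10 fibroblast, 4 of 9 smooth muscle, 5 of 8 endothelial, 6 of 8 macrophage, 7 of 8 T cell, 7 of 11 epithelial and 3 of 6 Schwann cell genes were in the table under their symbols. The 10 genes, the lists and the tests were chosen with earlier results of these data known. Besides the 10 genes, those named are the 3 genes with a symbol, outside the 10, that are most correlated with each over the tumors. The 2 largest rises and the 2 largest falls in each role are named as well. So are the first 2 genes found of the collagen, fibroblast, smooth muscle, epithelial and Schwann cell lists. Further marker genes and single collagens are named where a value turns on them, and some chromosomal neighbours of the 10 genes under other observations. Alternatives were the authors' DESeq-normalized table, other filters and limma settings, medians, each normal left out, Spearman's rho, and subsets of tumors. Leaving out tumors 14, 25 and 17 from the comparison with normals, or singly, regressing out the collagen or smooth muscle score, and other collagen references were added after the data were seen.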

Additional observations from a re-analysis of the deposited data

Results flagged for a closer look

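In groups of 4 normals, a sample was looked at again when its gap to the nearest other normal took a larger share of the group's range than Dixon's 95% limit, which chance passes for about 1 group in 20. Of 26 groups checked, none of the 10 matrix genes met this. TGM2 did, at 0.958 of the range, with normal 1 at -2.33 and the others from -2.69 to -2.67, a range so narrow that the gap is small beside the change in tumors. The epithelial marker mean did, at 0.938, with normal 4 at -2.39 against -0.83 to -0.72 in the others. The Schwann cell marker mean did, at 0.937, again through normal 4, at 3.96 against 3.46 to 3.49. Normal 4 also had the highest smooth muscle (7.28) and fibroblast (3.27) means, and LUM lost its call without it.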

How the results depend on the processing

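The log2 fold changes of the 10 genes kept their direction under every alternative run, and 9 genes were lower under each but for 8 without normal 1 or without normal 4 (LUM). Leaving out each normal gave 16 to 18 other matrix genes lower, 18 to 21 pairs differing in change, 5 to 6 genes differing from the collagens, and over all genes 2222 to 2695 higher and 10596 to 11067 lower. Over all genes, 2615 were higher and 11206 lower; 1377 were higher in the authors' DESeq-scaled table, 5603 without a fold threshold, and 5981 lower among genes above their lowest value in at least 15 samples. That table had 1 other matrix gene higher. With type I collagen as the reference 2 of 10 genes passed in place of 6. Pairs that varied together numbered 14 in the 11 letter-labelled tumors and 11 with the collagen score regressed out, in place of 41. Relations to marker lists numbered 25 in the 18 and 9 in the 11 tumors, in place of 38.

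Signs turned as follows. Against collagens, LUM was -0.10 with medians, from -0.18 (without normal 2) to 0.40 when each normal was left out, and -1.84 against COL5A1, and POSTN was 0.73, SPARC 0.74 and THBS2 0.47 against type I collagen. With the collagen score regressed out, r was -0.0253 for ELN with POSTN, -0.0468 with THBS2 and -0.180 with LOXL2. It was -0.0877 for MFAP4 with POSTN, -0.239 with SPARC and -0.328 with LOXL2. It was -0.313 for DCN with SPARC, -0.0606 for DCN with LOXL2, -0.0519 for LUM with SPARC and -0.170 for TNC with SPARC. It was -0.0238 for POSTN with LOX, -0.0784 for THBS2 with LOX and -0.430 for LOX with LOXL2. In the 11 letter-labelled tumors, LOXL2 was at -0.0350 with MFAP4 and -0.0221 with DCN. With smooth muscle regressed out, LOX with LOXL2 was -0.0276. The causes were not tested. No paired analysis was possible because the normals and tumors come from different dogs and their labels share no replicate number. Depth is unknown, and 4 normals set the precision of every comparison between groups.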

Other observations

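The genes that lie next to the 10 on their chromosomes, by the gene order of the RefSeq table for UU_Cfam_GSD_1.0, showed both kinds of relation over the 29 tumors. LUM lies between DCN and KERA, the gene of keratocan, another proteoglycan of the same family. KERA followed LUM at r = 0.830 and was lower in tumors by 3.94 (adjusted p = 0.000163). R3HCC1, whose r with LOXL2 (0.775) is the highest of any gene, is the neighbour of LOXL2 on one side, whereas ENTPD4 on the other side was at 0.042. R3HCC1 was not called between the groups (0.26, adjusted p = 0.422), as LOXL2 was not. POSTN and its neighbour TRPC4 were at 0.775, and THBS2 and its neighbour SMOC2, a matricellular gene that fell by 3.51 in tumors (adjusted p = 0.00149), were at 0.762. The neighbours of SPARC, LOX and MFAP4 that were measured lay between -0.251 and 0.137. Reads of a gene and of one that overlaps it could be split between them, and overlap was not examined, since the table's genome build differs from that of the reads.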
